A study of Mus musculus with 5 samples.

Results

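The genes described here are 90 genes whose expression was at least 2-fold lower on day 2 of osteoclast culture than on both day 0 and day 5, with day 2 below days 1 and 3. They were selected on the measured values: of 22180 genes named alone by a row of the array table, 12036 had a mean of about 4.9 or more in log2 over the arrays (the level filter), and 90 of these (0.748%) met the rule. Symbols starting with Ifi, Ifit, Isg, Irf, Oas, Stat, Gbp, Ms4a, Slc or Rab were left out by name, which removed 17 further genes of the same shape. The level on days 0, 2 and 5 was therefore used in the choice, and day 1 and day 3 were used only as an order, so counts on all 5 days are given as descriptions of the chosen genes.

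The samples were bone marrow-derived macrophages of wild-type mice 10 weeks old, cultured on plastic with M-CSF at 20 ng/ml together with RANKL at 30 ng/ml. M-CSF is the growth factor on which macrophages depend, and RANKL is the cytokine that turns them into bone-resorbing osteoclasts. Total RNA (5 ng) was amplified with the Affymetrix WT Pico kit and hybridised to 1 array for each of days 0, 1, 2, 3 and 5. No array of macrophages kept without RANKL was analysed here, so time in culture and differentiation cannot be told apart. With 1 array per day there is no replicate error and no test, and whether the days came from separate mice or cultures is not given in the sources used here.

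Macrophages keep a low tonic activity of type I interferon signalling even without infection. In that pathway signals from the receptor reach an element known as the ISRE in the promoters of antiviral genes. Macrophages also carry scavenger, Fc, lectin and Toll-like receptors that recognise microbes and debris, and genes of macrophage identity are known to be lowered as osteoclasts form. Serum amyloid A3, encoded by Saa3, is an acute phase protein made by macrophages.

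The culture carried the markers of its label. Ctsk, the collagen-degrading protease of osteoclasts, was 6.54 on day 0, 10.02 on day 1, 12.65 on day 2, 13.11 on day 3 and 13.29 on day 5 in log2. Of 20 measured osteoclast markers, 18 were at least 2-fold higher on day 2 than on day 0, against 5.18% of all measured genes. Genes higher on day 2 could not meet the rule, and no osteoclast marker was among the 90 genes. Csf1r, the M-CSF receptor, stayed between 11.71 and 12.50 over the 5 arrays. The median difference between day 2 and day 0 was 0.00 in log2 over all 12036 measured genes. The deposited values were scaled across arrays, so this median could not show a change shared by most genes. Over 11 reference genes the median difference was -0.0045, and none of them differed by 2-fold. The median level of those 11 genes was 11.17 on day 0 and between 11.36 and 11.47 on the other days.

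Saa3 showed the deepest trough of the 90 genes. Its log2 level was 9.84 on day 0, 7.68 on day 1, 7.33 on day 2, 10.03 on day 3 and 10.79 on day 5. Days 1 and 2 were both low, and day 3 was already above day 0. Day 2 was 5.67-fold below day 0, and day 5 was 10.95-fold above day 2. In bulk RNA, fewer expressing cells and less RNA per cell cannot be told apart.

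The Saa3 promoter is printed whole because this gene leads the group and its window holds matches to a pair of motifs searched in all promoters. The window runs from 250 bases before to 50 bases after the start of the transcript annotated by RefSeq (GRCm38.p6, chr7:46715627-46715926, minus strand). It is written 5′ to 3′ in the direction of transcription. The capitals mark, in order, an ISRE core (GAAA, any 2 bases, GAAA) beginning at position -125 from the annotated start and a C/EBP motif (TTGCNNAA, here on the opposite strand) at -99.
Saa3: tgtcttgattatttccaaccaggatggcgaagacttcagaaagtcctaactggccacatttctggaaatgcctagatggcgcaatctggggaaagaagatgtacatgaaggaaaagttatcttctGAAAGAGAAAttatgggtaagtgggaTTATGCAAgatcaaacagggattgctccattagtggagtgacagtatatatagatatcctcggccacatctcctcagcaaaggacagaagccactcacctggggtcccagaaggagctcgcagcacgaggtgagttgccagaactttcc

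Promoter windows were found in the RefSeq table for 68 of the 90 genes, and the ISRE core was the motif whose share differed most from that of all measured genes. It was searched on both strands, and a match on the opposite strand reads TTTC, any 2 bases, TTTC. It was present in 17 of 68 members (25%), in 349 of 9504 measured genes with a window (3.67%) and in 3.44% of all 32851 windows. Of 16 members with a window that stand on one of the interferon or nucleic acid sensing lists, 10 (62.5%) held it. Of the 52 other members, which may include interferon-induced genes off the lists, 7 did (13.5%). Among the genes left out by symbol, 5 of 14 with a window held it (35.7%). Its share among genes of the interferon lists without the trough was not computed. The 10 include Trim30a and Trim30d, whose windows share a stretch of 50 bases. These are shares of genes that hold the letters, with no test, and a match is not a site shown to be bound. In the 150 bases nearest the start, 13 of 68 members held the core, against 1.6% of measured genes.

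The stretches around the ISRE core are shown for antiviral members, with the match in capitals and 20 bases on each side, in the direction of transcription (GRCm38.p6, RefSeq). The spacing is fixed by the searched pattern, and the variable bases at its centre can be read across genes.
Trim34a (chr7:104244447-104244496, plus strand): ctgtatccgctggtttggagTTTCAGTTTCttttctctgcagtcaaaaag
Trim12a (chr7:104315456-104315505, minus strand): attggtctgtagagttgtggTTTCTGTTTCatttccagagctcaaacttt
Trim30d (chr7:104507861-104507910, minus strand): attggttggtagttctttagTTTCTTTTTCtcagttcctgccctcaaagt
Irgm2 (chr11:58214893-58214942, plus strand): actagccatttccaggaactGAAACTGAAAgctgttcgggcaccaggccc
Ddx60 (chr8:61928014-61928063, plus strand): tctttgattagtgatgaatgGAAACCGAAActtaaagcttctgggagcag
Ddx58 (chr4:40239794-40239843, minus strand): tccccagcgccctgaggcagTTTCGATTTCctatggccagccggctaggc
Lgals9 (chr11:78984880-78984929, minus strand): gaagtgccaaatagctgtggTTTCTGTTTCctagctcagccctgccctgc
Phf11b (chr14:59341351-59341400, minus strand): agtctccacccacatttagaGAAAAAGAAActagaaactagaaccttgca
Most of these matches lie close to the annotated start, at -64 in Irgm2, -53 in Ddx60, -50 in Phf11b, -41 in Trim30d, 2 in Ddx58, 10 in Trim34a and Trim12a, and 15 in Lgals9. Ddx60 holds another at -19 and Lgals9 another at -55. The upstream window of Trim30a, next to Trim30d on chromosome 7, repeats the same 50 bases as Trim30d. Slfn5 held a match at -155 that runs on into a stretch of A.

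Outside the interferon lists the ISRE core was found in Saa3 and in 6 other members, of which 3 are printed for comparison.
Cybb (chrX:9469324-9469373, minus strand): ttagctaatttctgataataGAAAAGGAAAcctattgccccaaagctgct
Aoah (chr13:20794111-20794160, plus strand): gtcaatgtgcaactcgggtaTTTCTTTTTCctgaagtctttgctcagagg
Apol7c (chr15:77533341-77533390, minus strand): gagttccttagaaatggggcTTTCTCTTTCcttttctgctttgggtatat
Cybb, which encodes the catalytic subunit of the phagocyte NADPH oxidase, held 3 matches, at -168, -124 and -29. Aoah held 1 at 18, and Apol7c held an overlapping pair at -55 and -49. The others were Aif1 at -157, within a run of A, Gm12250, which lies beside Irgm2, at -91 and -46, and Gm5150 at -240.

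The remaining motifs gave smaller contrasts. The PU.1 core (GAGGAAG), bound by the factor that specifies macrophages, was in 17 of 68 members (25%) and 16% of measured genes. It was in 14 of the 52 members off the interferon lists (26.9%). The C/EBP motif was in 12 of 68 (17.6%, against 10.1% of measured genes), the AP-1 motif (TGANTCA) in 8 (11.8%, against 6.48%) and the GAS element (TTCNNNGAA) in 9 (13.2%, against 8.04%). The kappaB core (GGGA, any base, TTTCC) was in none of the 68 windows and in 0.558% of measured genes. The E-box (CACGTG) was in 3 members (4.41%) and 11.6% of measured genes. Over all windows of this length the PU.1 core was present in 13.6%, C/EBP in 10.8%, AP-1 in 7.81%, GAS in 8.30%, kappaB in 0.411%, and the E-box in 7.15%. TATAAA was in 10 members (14.7%), 9.06% of measured genes and 13.6% of all windows.

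**Figure D1:**
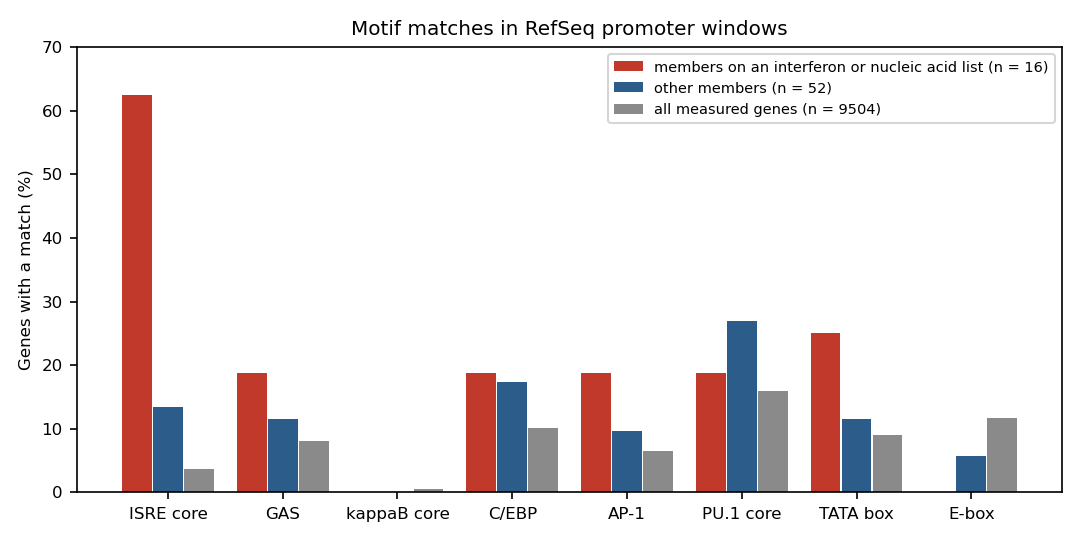
Share of genes (per cent) whose 300-base promoter window holds each motif on either strand, for members on an interferon or nucleic acid list (red, n = 16), other members (blue, n = 52) and all measured genes with a window (grey, n = 9504). The ISRE core stands at 62.5%, 13.5% and 3.67% in the 3 sets.

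The day 2 minimum was for most members the bottom of a slope that had begun by day 1. The median member was 8.55 on day 0, 7.21 on day 1, 6.71 on day 2, 7.84 on day 3 and 8.17 on day 5. By day 1, 54 of the 90 genes (60.0%) were at least 2-fold below day 0, against 4.18% of all measured genes. Day 2 itself was at least 2-fold below day 1 in 11 members (12.2%), against 0.557%. The median member had covered 70% of its day 0 to day 2 difference by day 1. The description as a transient loss at day 2 therefore held in the narrow sense for 9 genes, which on day 2 were at least 2-fold below each of the other 4 days.

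Those 9 genes were Marco, Slpi, Clec4n, Aif1, Siglec1, Usp18, Fabp4, Apol7c and Mir103-2. Marco, a scavenger receptor for bacteria and particles, was 10.08 on day 0, 8.82 on day 1, 7.23 on day 2, 9.20 on day 3 and 9.57 on day 5. It stepped down on both days and lay nearly as high on day 5 as on day 0. Slpi, a secreted inhibitor of neutrophil proteases, was 7.83, 8.31, 5.84, 7.17 and 7.46 on days 0, 1, 2, 3 and 5. Its day 1 value was the highest of the series and its day 2 value the lowest.

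Clec4n encodes dectin-2, a lectin receptor for fungal mannans. It was 10.94 on day 0, 10.47 on day 1, 9.21 on day 2, 10.79 on day 3 and 11.55 on day 5, so day 2 stood apart from 4 high days. Fabp4, a fatty acid carrier of macrophages and fat cells, was 9.33, 9.10, 7.95, 9.87 and 10.32 over the same days. Both ended above day 0, as did Usp18.
Aif1 (also known as Iba1), an actin-binding protein of macrophages, was 10.40, 9.98, 8.79, 9.85 and 10.31. Siglec1, the sialic acid-binding adhesion receptor sialoadhesin, was 10.11 on day 0, 7.85 on day 1, 6.79 on day 2, 7.88 on day 3 and 8.27 on day 5. It was low on all days after day 0. Apol7c, of the apolipoprotein L family, was 4.66, 5.27, 3.65, 7.61 and 6.31, with its day 0 and day 2 values below the level filter. In all, 9 members had a day 2 value below it, Trim30c, Phf11d and Nxpe5 among them, so the size of those troughs rests on low signals. Mir103-2, the gene of a microRNA hairpin, was 5.99, 5.67, 4.07, 7.13 and 5.97, a value of the array row and not of the mature microRNA.

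**Figure D2:**
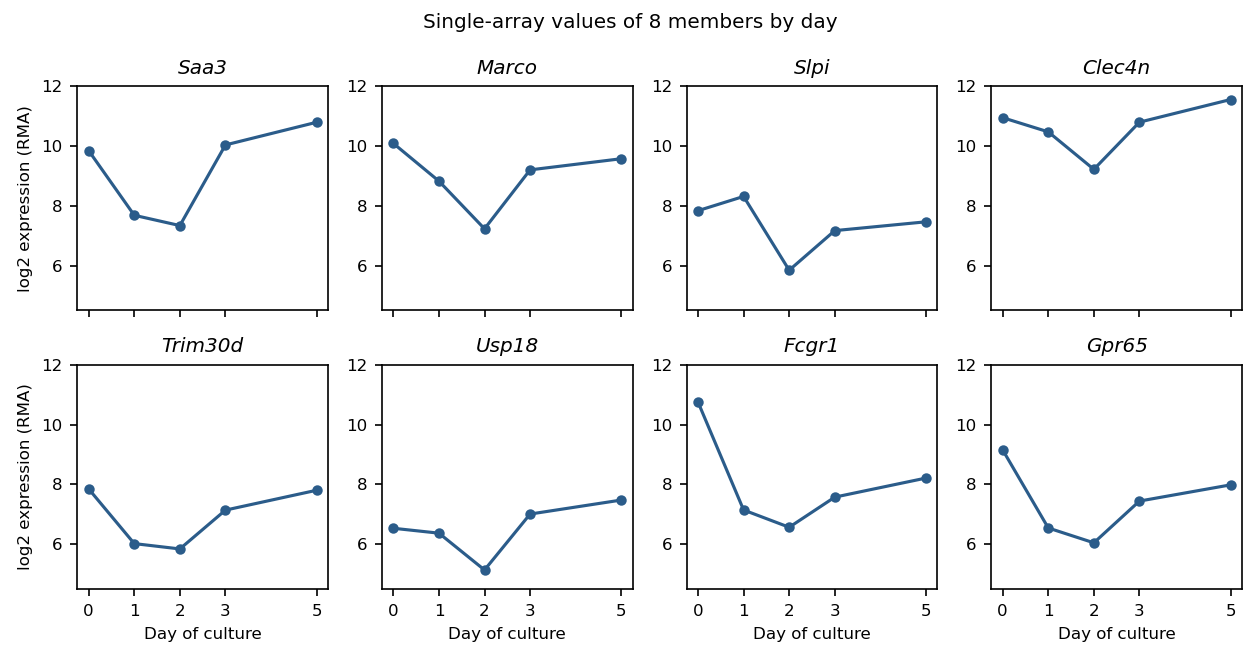
log2 expression (RMA) of 8 members by day of culture, 1 array per day, each point a single array. Saa3, Trim30d, Fcgr1 and Gpr65 were low by day 1, while the day 0 to day 2 difference of Slpi, Clec4n and Usp18 lay mainly between days 1 and 2.

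Recovery was spread over the later days. On day 3, 55 members (61.1%) were at least 2-fold above day 2, against 2.09% of measured genes. The median member had regained 75.9% of its day 2 to day 5 difference by day 3, and 78 of 90 were higher on day 5 than on day 3. Day 5 minus day 3 had a median of 0.37 over the members and 0.00 over all measured genes. The rule itself required a day 5 level well above day 2. Day 5 lay within 0.5 of day 0 in 45 members. The quartiles of day 5 minus day 0 were -0.83 and 0.14 over the members and -0.31 and 0.25 over all measured genes. Lying within 0.5 was therefore not particular to the members. Day 5 was at least 2-fold below day 0 in 19 (21.1%, against 6.57% of measured genes) and at least 2-fold above in 1, Apol7c (against 6.79%). The rule required all 90 to be at least 2-fold lower on day 2 than on day 0, as 5.25% of measured genes were, and at least 2-fold higher on day 5 than on day 2, as 2.78% were.

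**Figure D3:**
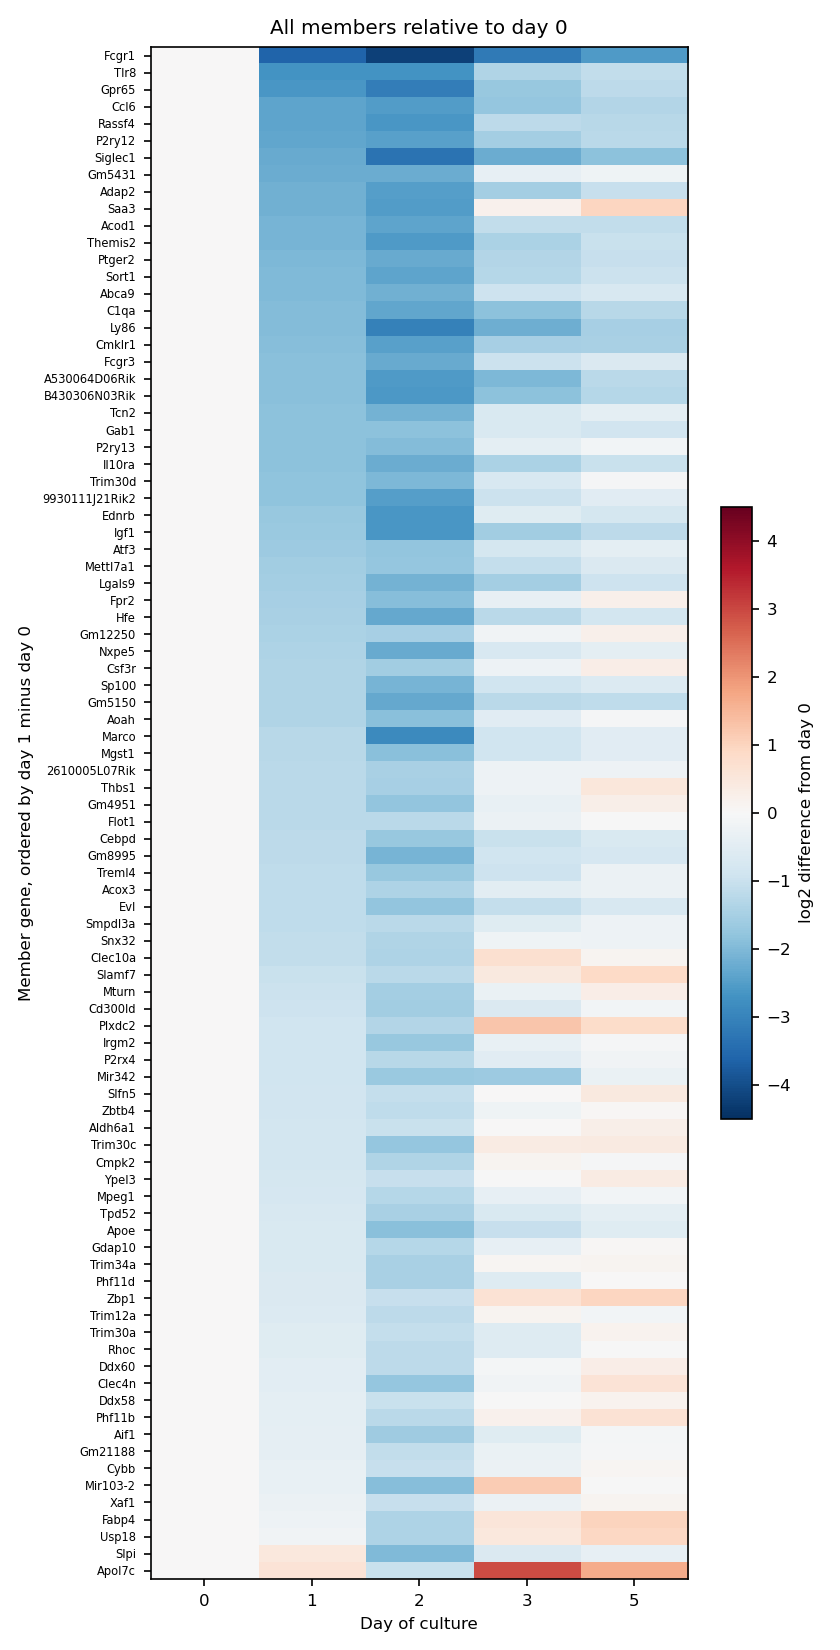
log2 difference from day 0 for all 90 members (rows, ordered by day 1 minus day 0) on each day of culture (columns); blue is lower and red higher than day 0. Most rows are blue by day 1, darkest on day 2 and paler on days 3 and 5, from Fcgr1 (-4.18 on day 2) to Apol7c.

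Antiviral and interferon-induced genes formed the most numerous role given (18 members), while 30 members had no role. Roles were given after the members' values were seen. Of the 90 genes, 19 stood on a list of interferon-induced, interferon signalling, ISG15 and ubiquitin, GTPase or nucleic acid sensing genes. Members were 10 of 59 measured interferon-stimulated effectors, 6 of 24 ISG15 and ubiquitin genes and 5 of 21 nucleic acid sensing genes. They were 1 of 23 receptors, kinases and factors and 1 of 9 GTPases, against 0.748% of all measured genes. Some genes stood on more than 1 list. The day 2 difference of the 19 from day 0 was smaller, with a median of -1.39 against -1.87 for the other 71. The sets are thus not matched in the size of that difference. On day 1, 5 of the 19 and 49 of the 71 were at least 2-fold below day 0, with medians of -0.68 and -1.34 in log2. Day 2 was at least 2-fold below day 1 in 1 and 10 of them. On day 3, 14 of the 19 and 41 of the 71 were at least 2-fold above day 2. On day 5, 12 of the 19 and 17 of the 71 were above day 0, and 1 and 18 were at least 2-fold below it. Over all measured genes the median of day 5 minus day 0 was 0.00, and 6.57% were at least 2-fold below. The contrast between the sets was not tested, and the 71 may include interferon-induced genes off the lists.

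**Figure D4:**
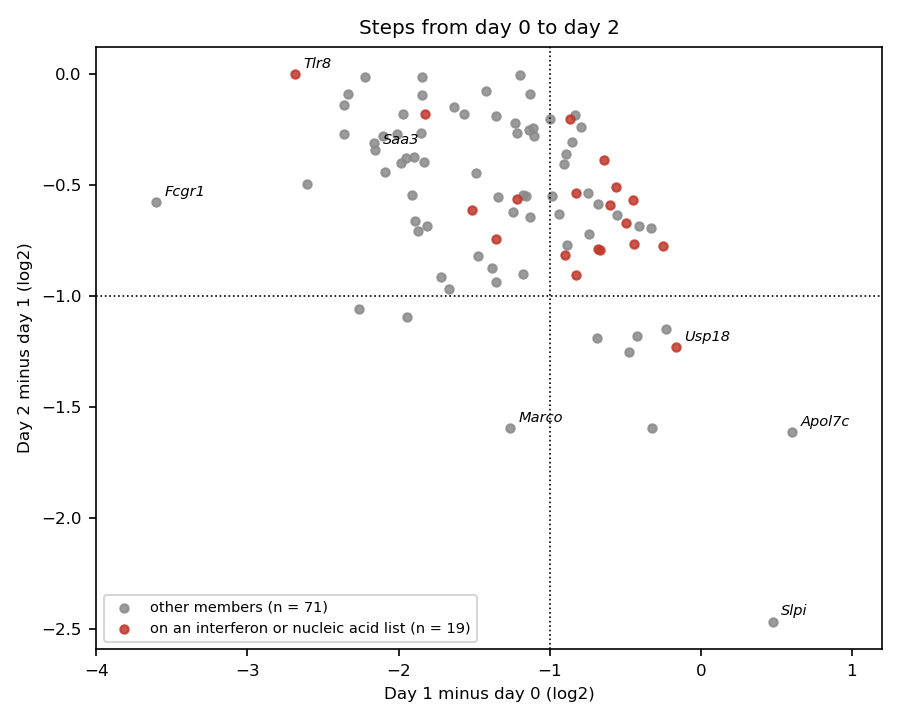
Day 1 minus day 0 (horizontal) against day 2 minus day 1 (vertical), both in log2, for each of the 90 members, with 19 genes on an interferon or nucleic acid list in red and the other 71 in grey; dotted lines mark -1. Most red points lie right of the vertical line and above the horizontal one, so that neither single step reached 2-fold. Left of the vertical line lie, among others, Fcgr1 and Saa3 in grey and Tlr8 in red.

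The Trim cluster on chromosome 7 supplied 5 members that are neighbours in RefSeq: Trim34a, Trim12a, Trim30c, Trim30a and Trim30d. They belong to the tripartite motif family of ubiquitin ligases, several of which restrict viruses. Trim30d was 7.85 on day 0, 6.02 on day 1, 5.84 on day 2, 7.14 on day 3 and 7.80 on day 5. Trim30c was 5.84, 5.01, 4.11, 6.21 and 6.23, and Trim34a was 8.76, 8.09, 7.30, 8.87 and 8.87. Trim30d was low by day 1, whereas Trim34a and Trim30c descended in 2 steps and were above day 0 by day 3. Trim30a (7.16 on day 0, 6.10 on day 2, 7.32 on day 5) and Trim12a (7.92, 6.73 and 7.80) were shallower. These genes are close copies of each other, and probes that match several copies would make their values depend on each other.

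Sensors of nucleic acids made up the next set of antiviral members. Ddx58 encodes RIG-I, the cytosolic sensor of viral RNA, and was 8.61, 8.16, 7.59, 8.59 and 8.78 on days 0, 1, 2, 3 and 5. Its relative Ddx60 was 6.20, 5.71, 5.04, 6.13 and 6.50. Zbp1, a sensor of Z-form nucleic acids that can trigger necroptosis, was 6.15, 5.51, 5.13, 6.81 and 7.14. All of them were above their day 0 level by day 5, and Zbp1 by day 3.
Tlr8, an endosomal receptor for RNA, followed another course, with 9.90 on day 0, 7.21 on days 1 and 2, 8.55 on day 3 and 8.77 on day 5. Its whole difference was present by day 1, and it remained more than 2-fold below day 0.

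Usp18 removes ISG15 from proteins and dampens signalling from the type I interferon receptor. It was 6.53 on day 0, 6.37 on day 1, 5.14 on day 2, 7.01 on day 3 and 7.48 on day 5, and was the 1 gene of the 19 with a 2-fold step between days 1 and 2. The rule left out by symbol 7 other genes of the interferon lists with such a step, which are given with the genes left out. Cmpk2, a mitochondrial nucleotide kinase encoded beside the antiviral gene Rsad2, was 7.65, 6.82, 6.28, 7.77 and 7.58. Rsad2 itself had a trough of 0.74 and was not a member.
Irgm2, an immunity-related GTPase, was 8.0, 7.10, 6.28, 7.66 and 7.93, and Gm4951, a predicted gene on the interferon lists, was 6.87, 5.66, 5.10, 6.53 and 7.14. Sp100, a nuclear body protein, was 9.49, 8.14, 7.39, 8.58 and 8.88. Phf11b and Phf11d, neighbours and close relatives on chromosome 14, were 7.90 and 6.09 on day 0, 6.69 and 4.63 on day 2, and 8.55 and 6.12 on day 5. Slfn5 of the Schlafen family was 7.42, 6.35 and 7.85 on those days, Xaf1, a pro-apoptotic partner of XIAP, 7.12, 6.09 and 7.25, and Lgals9, which encodes galectin-9, 11.13, 9.0 and 10.20.

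The genes left out by symbol extended the same role. They included Oasl2, whose trough of 2.94 was deeper than that of any member. It was 8.77 on day 0, 7.60 on day 1, 5.83 on day 2, 8.39 on day 3 and 8.87 on day 5. Ms4a4a followed with 2.93 (8.14, 5.52, 5.12, 7.28 and 8.05), then Ifi204 with 2.13, Ifi209 and Oas3 with 1.56 each, and Irf7, the factor that amplifies type I interferon production, with 1.51. By symbol start, 5 of the 17 were Ms4a genes, 4 Oas, 2 Ifi and 2 Irf, with 1 each of Ifit, Isg, Slc and Stat. On day 1, 10 of the 17 were at least 2-fold below day 0 (4.18% of measured genes were), and on day 3, 12 were at least 2-fold above day 2 (2.09%). Day 2 was at least 2-fold below day 1 in 7 of the 17 (0.557%): Oasl2, Ifi209, Oas3, Irf7, Oas1g, Isg15 and Oas2. All 7 were among the 12 left-out genes on an interferon or nucleic acid list.

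The wider interferon response took part unevenly. Of 59 measured interferon-stimulated effectors, 10 were members and 9 were left out by symbol. In this list 23 genes were at least 2-fold lower and 1 higher on day 2 than on day 0, with a median of -0.66 against 0.00 for all measured genes. Of all measured genes 5.25% were lower and 5.18% higher, shares that also serve for the lists below. By day 3, 18 of the effectors were at least 2-fold above day 2 (2.09% of measured genes were). Mx2 was 5.26 on both days 0 and 2. Among 23 receptors, kinases and factors, 6 were at least 2-fold lower, among them Irf8 and Stat2, and the median was -0.48.
The receptor chains were not members: Ifnar1 was 10.86 on day 0 and 10.38 on day 2, and Ifnar2 was 10.69 and 9.97. Of 21 nucleic acid sensing genes, 11 were at least 2-fold lower (median -1.01), and of 24 ISG15 and ubiquitin genes 8 were (median -0.40). The interferon-inducible GTPases had 2 of 9 lower (median -0.19) and the MHC class I genes 2 of 18 (median -0.13), with no MHC class I gene among the members. Where a list holds members, its day 2 counts share the values that chose them.

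Receptors for microbes and immune complexes were the next role. Of 13 such members, 10 were at least 2-fold below day 0 on day 1 (4.18% of measured genes were). On day 5, 5 were so (6.57% of measured genes) and 4 were above day 0. Their median day 5 difference from day 0 was -0.51, against 0.00 for all measured genes. Fcgr1, the high-affinity IgG receptor CD64, was 10.75 on day 0, 7.14 on day 1, 6.57 on day 2, 7.57 on day 3 and 8.21 on day 5. Its day 2 value was 18.2-fold below day 0, and day 0 stood apart from the other days. Fcgr3, a low-affinity IgG receptor, was 11.58, 9.68, 9.31, 10.62 and 10.94.
Fpr2, a formyl peptide receptor of phagocytes, was 9.23, 7.74, 7.30, 8.86 and 9.46, and so ended above day 0. Ly86 encodes MD-1, the partner of the Toll-like receptor relative CD180, and was 10.21, 8.27, 7.17, 8.01 and 8.71.

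Signalling receptors on the cell surface were mostly low by day 1, as were members of several other roles. Of 9 G protein-coupled, purinergic and cytokine receptors, 8 were at least 2-fold below day 0 on day 1. So were 60% of all members and 4.18% of measured genes. By role it was 10 of 13 receptors for microbes, 7 of 9 lipid, vitamin and iron genes and 3 of 3 secreted proteins. It was 5 of 8 acute phase and antibacterial genes, 17 of 30 members without a role and 4 of 18 interferon-induced genes. On day 5, 5 of the 9 receptors were at least 2-fold below day 0, with a median difference of -1.01. Gpr65, a receptor that senses extracellular protons, was 9.15 on day 0, 6.54 on day 1, 6.05 on day 2, 7.44 on day 3 and 7.98 on day 5. Ednrb, the endothelin receptor B, was 8.94, 7.22, 6.30, 8.38 and 8.13. The ADP receptors P2ry13 and P2ry12, neighbours on chromosome 3, were 6.96 and 8.48 on day 0 and 5.03 and 6.05 on day 2.
On day 5 P2ry13 was at 6.83, close to day 0, and P2ry12 at 7.25, more than 2-fold below it. Il10ra (8.66 on day 0, 6.43 on day 2, 7.65 on day 5), the ligand-binding chain of the interleukin-10 receptor, and Ptger2 (8.07, 5.79 and 7.01), a prostaglandin E2 receptor, also stayed low. Csf3r, the G-CSF receptor, was 7.80, 6.44, 6.25, 7.57 and 8.11.

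Acute phase and antibacterial genes numbered 8 members, of which 5 were at least 2-fold below day 0 on day 1 and 1 was so on day 5. Aoah, which encodes an enzyme that detoxifies bacterial lipopolysaccharide, was 10.42 on day 0, 9.07 on day 1, 8.52 on day 2, 9.92 on day 3 and 10.36 on day 5. Acod1, whose product makes the antibacterial metabolite itaconate, was 9.70, 7.60, 7.33, 8.60 and 8.59, and Cybb was 11.62, 11.29, 10.59, 11.34 and 11.72. The day 0 to day 2 difference of Cybb lay mainly between days 1 and 2, whereas Acod1 was low by day 1 and stayed more than 2-fold below day 0. Mpeg1, encoding the pore-forming perforin-2, was 11.44, 10.70, 10.16, 11.07 and 11.31. Cebpd, a C/EBP transcription factor of the acute phase response, was 8.18, 7.0, 6.46, 7.17 and 7.50. Of 16 measured genes on the acute phase list, 4 were members: Saa3, Cebpd and the receptors Marco and Fpr2. These and Cd36 were the 5 that were at least 2-fold lower on day 2 than on day 0, and 1, Il1rn, was higher. Over all measured genes 5.25% were lower and 5.18% higher. Hp, Lcn2 and Cfb differed by -0.84, -0.77 and -0.43, and Orm1 by 0. The list's median was -0.71, and it was -1.32 with a stricter level filter and -0.19 with none. Of 27 NF-kB target genes, 5 were lower and 2 higher, with a median of 0.00 and 1 member.

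Lipid, vitamin and iron handling genes made up 9 members. Apoe, the lipid carrier apolipoprotein E, was 8.39 on day 0, 7.71 on day 1, 6.52 on day 2, 7.36 on day 3 and 7.86 on day 5. Tcn2, which encodes the vitamin B12 carrier transcobalamin, was 9.67, 7.82, 7.56, 8.97 and 9.22. Hfe, a regulator of iron uptake, was 9.61, 8.14, 7.32, 8.41 and 8.77. Of the 9, Fabp4 was the 1 gene above day 0 on day 5, and none was as much as 2-fold below.
Secreted proteins were split. Thbs1, encoding the matrix protein thrombospondin-1, was 8.84, 7.62, 7.36, 8.62 and 9.34, while the growth factor gene Igf1 was 9.34, 8.37, 9.45 and 9.84 on days 1, 2, 3 and 5 (-2.63 on day 2 and -1.16 on day 5 against day 0) and the chemokine gene Ccl6 was 10.94, 8.58, 8.43, 9.20 and 9.62. Thbs1 ended above day 0, and Igf1 and Ccl6 more than 2-fold below it.

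**Figure D5:**
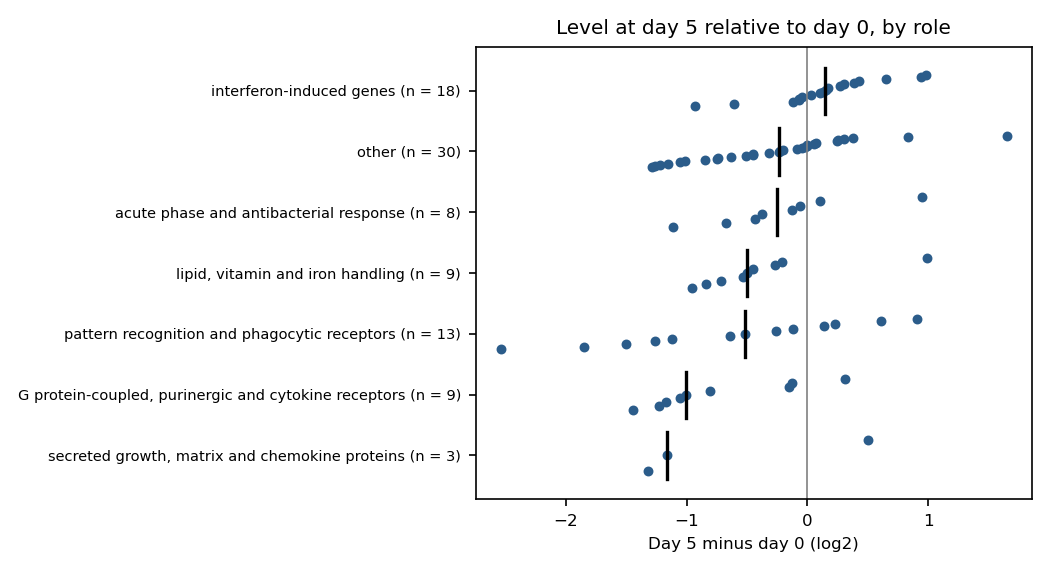
Day 5 minus day 0 (log2) for each member, grouped by role; points are genes on single arrays, the vertical bar is the median of a role and the grey line marks 0. The median of the 18 interferon-induced genes is 0.14, that of the 9 surface signalling receptors -1.01.

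The other members had mixed functions. Themis2, a signalling adaptor of myeloid and B cells, was 9.57, 7.48, 7.03, 8.15 and 8.55, and Nxpe5 was 6.94, 5.56, 4.68, 6.23 and 6.49. Mturn was 7.46, 6.48, 5.92, 7.15 and 7.76. C1qa, a chain of complement C1q and a macrophage identity gene, was 12.22, 10.27, 9.89, 10.36 and 10.95. Of 27 macrophage identity genes, 5 were members. In that list 18 were at least 2-fold lower than on day 0 on day 2 (median -1.41), 15 on day 1 and 11 on day 5. Over all measured genes the shares were 5.25%, 4.18% and 6.57%.

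Markers of other cells were measured on the same arrays. Of 16 neutrophil markers, Ly6g and Retnlg were below the level filter and 14 were measured. Of these, 5 were at least 2-fold lower on day 2 than on day 0 (5.25% of measured genes were). The median log2 level of the 14 was 6.41 on day 0, 6.46 on day 1, 5.68 on day 2, 5.96 on day 3 and 5.35 on day 5, lowest on day 5. Their summed linear signal, which the brightest probes dominate, was 2705, 2680, 1296, 1861 and 1600 on those days. Without Csf3r, which is on that list and is a member, the sum was 2482, 2593, 1220, 1671 and 1324, still lowest on day 2. Without Mmp8 as well, which is not a member, it was 1838, 2052, 991, 1225 and 871. The markers were thus lower on day 2 than on the days before it. In the sum, the order of days 2 and 5 changed only when Mmp8 was also left out. The part of neutrophil RNA in the members' values was not tested. Of 33 measured cell cycle genes none differed by 2-fold between days 0 and 2 and none was a member.

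The threshold cut a continuous range. The members just inside it were Smpdl3a and Tpd52, each with day 2 lower by 1.01 than the nearer of days 0 and 5, and Apol7c with 1.01. The genes just outside were Ropn1l, Itgal and Csad with 0.99 each. Over all 90 genes this depth had a median of 1.34 and ran to 2.5 in Saa3. For scale, when 499 genes had another measured row, the depth of the rows of 1 gene disagreed with an SD of 0.467 on the same arrays, which measures probes and not cultures.
Some member genes had further rows that the rule had not chosen, read on the same 5 arrays. Of 3 such rows above the level filter, that of Sp100 was 6.95, 6.11, 5.64, 6.32 and 6.68, and had a trough of 1.04. That of Smpdl3a had a trough of 0.30, and that of Aldh6a1 was 4.87 on days 0, 2 and 5. A trough of 2-fold was found in 1 of these 3 rows.

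The same shape centred on another day was counted for comparison. With day 1 lowest of days 1 to 3, 80 further genes were at least 2-fold below both day 0 and day 5, and with day 3 lowest, 9 were. The opposite shape, a peak at least 2-fold above days 0 and 5, was found in 111 genes on day 1, 17 on day 2 and 5 on day 3. Troughs on day 2 were thus about as many as on day 1, whereas peaks were fewer on day 2 than on day 1. The same symbols were left out of all these counts.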

How the data were processed

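RNA of 5 samples was measured on 1 Affymetrix array each. The deposited values are log2 expression, made by the authors with RMA in the oligo package under R 3.4.0, per the submitters' processing notes; summary level, probe annotation and genome build: not given in the sources used here. RMA quantile-scales arrays together, so a change shared by most genes would not be seen. Of 41345 rows, 23521 name 1 gene, 1814 several and 16010 none; the 22180 genes (1082 with several rows) take their row of highest mean. Symbols follow the platform annotation, with 21994 genes found in RefSeq by Entrez identifier and 0 symbols changed. Levels of different genes are not compared, since probes differ.

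Differences are between single arrays, so their number limits the precision and no p-value was computed. The members, the 21 gene lists (486 entries, 50 without a row, 4 matched through a synonym) and the role groups were chosen with earlier results of these data known, the roles after the members' values were seen. Named are the 25 deepest known members, those on a list, 3 genes on each side of the threshold, the 6 deepest of those left out by symbol and, in a list, up to 2 genes; other names were picked after their values were seen. Promoter windows (300 bases) come from RefSeq on GRCm38.p6, 32851 in all; 60 members have 1 window, and a gene with several counts once. Python 3.11.15, numpy 2.4.6, pandas 2.3.3 and matplotlib 3.10.9 were used, and the selection was checked on simulated data. Alternatives covered scaling, rows per gene, level filter, threshold, days used and promoter window.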

Additional observations from a re-analysis of the deposited data

How the results depend on the processing

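With 1 array per day no array could be left out and no paired analysis was possible because no group has a second sample. A stricter or looser threshold admits fewer or more genes by construction: at 1.5-fold and 3-fold there were 269 and 20 members in place of 90, 27 and 3 genes left out by symbol in place of 17, 90 and 3 members at least that far above day 2 on day 1 (11), 184 and 6 on day 3 (55), 109 and 1 that far from day 0 on day 5 (20), 182 and 10 below day 0 on day 1 (54), and 69 and 5 above day 0 on day 5 (29). The last 2 counts were added after seeing the data. With genes limited to a mean of 7.11, the 75th percentile of row means, 58 genes met the rule, 32 of them 2-fold up by day 3 and 12 above day 0 on day 5. Without the day 5 condition 337 genes met the rule, without the day 0 condition 139, and 9 were 2-fold below all other days. Centring on 11 reference genes gave 105 members (86 shared), centring on the measured genes 95 (all 90 kept), the mean of a gene's rows 86 (85 shared) and no level filter 96 (90 kept). The depths of Sp100 and Trim34a were 0.70 and 0.73 with the mean of rows, and those of the other 43 named members moved by less than the disagreement between rows. Under the stricter level filter the medians of 6 of the 21 lists moved by more than that disagreement, and the B cell and the mast cell lists had no gene left. The median day 2 difference of the T and NK cell markers (1.00, 2 genes) was -0.0568 without the level filter, where more genes enter the list.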

Other observations

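Rows that the member rule could not use were counted too. Of 8001 rows with a mean at or above the level filter that name several genes or none, 81 (1.01%) had the day 2 trough and 40 the opposite shape.

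Some members lie beside each other. With gaps of at most 100000 bases in RefSeq, 16 of the 90 members lay in groups of neighbouring members; the share for all measured genes was not computed. Besides the Trim, Phf11 and P2ry groups these were Irgm2 with Gm12250, Evl with Mir342, and Treml4 with a pair of predicted genes. Evl, an actin regulator, was 10.76, 9.63, 8.99, 9.68 and 10.03 on days 0, 1, 2, 3 and 5, and Mir342, encoded in it, was 8.17, 7.28, 6.51, 6.54 and 7.85. Mir342 was still low on day 3, when Evl was higher than on day 2. Among the genes left out, 5 Ms4a genes, 3 Oas genes, and Ifi209 with Ifi204 formed groups of their own.

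The chemokine list was divided on day 2. Of 16 measured chemokine genes, 8 were at least 2-fold lower on day 2 than on day 0 (5.25% of measured genes were; median -1.06), with Ccl7 and Ccl2 showing the largest differences, and 1, Ccl6, was a member. On day 5, 3 were at least 2-fold above day 2 and 7 at least 2-fold below day 0.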
